A study of Mus musculus with 10 samples.

Results

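The synaptic vesicle and secretory release genes are 40 mouse genes whose proteins store transmitter and peptide in vesicles and fuse those vesicles with the plasma membrane. They were taken by gene symbol and Ensembl ID, and all 40 were found among the 55414 gene IDs of the count files. The set holds 11 synaptotagmins and related proteins (here the calcium sensor group), 4 SNAREs, and 4 SNARE regulators and priming factors. It also holds 12 vesicle membrane and surface proteins, 6 active zone and adhesion proteins and 3 granins. Not every protein of the calcium sensor group binds calcium. Bulk RNA was sequenced from trigeminal ganglia of C57Bl6 mouse embryos at stage E13.5. The 5 knockout libraries (replicates 16, 29, 42, 49 and 50) carry the genotype Prdm12-/- and the 5 wild-type libraries (replicates 22, 24, 32, 35 and 45) carry Prdm12+/+. All 10 also carry the label Sox10 Venus+, so both groups share that allele, and the loss of Prdm12 is constitutive. The question was which release genes, and which of several close paralogues, differed in ganglia without Prdm12, a zinc finger regulator that nociceptors need in order to form.

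The trigeminal ganglion holds the cell bodies of the pain, temperature and touch neurons of the face. At a release site, Munc13 and RIM proteins prime docked vesicles, syntaxin, SNAP-25 and synaptobrevin zip into a SNARE complex, complexins hold that complex ready, and synaptotagmins trigger fusion when calcium enters. Most of these proteins exist as families of paralogues, and different neuron types use different members. Granins form the dense core granules from which sensory neurons release peptides.

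Total counts lay between 27308327 and 33556002 in 8 libraries, while knockout 29 had 13603690 and knockout 49 had 3258008. A floor of 3 counts corresponded to 0.869 CPM (counts relative to library size after TMM scaling) in knockout 49 and 0.236 CPM in knockout 29, and to 0.0889 to 0.107 CPM in the others. Prdm12 itself had 8.74, 42.7, 10.1, 12.2 and 17.02 CPM in the knockout libraries, in the order of replicates above, against 148, 178, 246, 264 and 74.3 CPM in the wild-type libraries, a log2 fold change at -3.32, with SE 0.49 and adjusted p = 0.0156. The nociceptor sodium channel gene Scn10a lay at 4.69 to 26.1 CPM in knockouts and at 113 to 486 CPM in wild types, and 7 of 14 tested nociceptor markers were called lower. Summed over that marker list, levels were 789.6 to 1128 CPM in the knockout, against 1634 to 4273 CPM in the wild type. Pan-neuronal markers summed to 9003 to 20356 CPM in knockouts and 11837 to 21934 CPM in wild types, and glial markers to 1696 to 5548 CPM in the knockout, against 1651 to 2891 CPM in the wild type. Knockout 29 stood apart through glial genes (Sox10 at 3764 CPM, against 390.1 to 844 CPM in the other knockouts), knockout 16 through central nervous system markers, knockout 49 through pituitary markers, and wild-type 32 and 35 through little mesenchyme. The sample titles of the 2 genotypes begin with different letters, F and K, and the labels do not say what these mark. Any handling that follows the letters cannot be told apart from genotype. Whether each library is 1 embryo is not labelled, and p-values here describe library-to-library spread that may be technical.

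No release gene passed edgeR's quasi-likelihood test at an adjusted p of 0.05: 0 of 40 members were called, against 84 of 18005 tested genes (0.467%, with 0.372% lower and 0.0944% higher). All 40 had passed the filter on low counts. At an unadjusted p under 0.05 there were 7 members (all genes 13.1%), 6 with lower levels in the knockout (all genes 6.73%) and 1 with a higher level (all genes 6.4%). DESeq2 called 4 members lower, namely Syt13, Doc2b, Cplx2 and Sv2b, where it called 1.19% of all genes lower and 1.7% higher. Limma voom called Doc2b alone, lower (all genes 0.411% lower and 0.128% higher), and with sample quality weights it called Syt2, Syt13, Doc2b, Cplx2, Syn2 and Sv2b lower (all genes 6% lower and 7.02% higher). The median log2 fold change of the 40 members was 0.02, beside -0.03 for all genes, with 18 negative and 22 positive values. That balance moved with the setting. Without wild-type 32 and 35 the median was 0.33 (all genes 0.03) with 31 positive values, with pan-neuronal scaling it was 0.42 (all genes 0.34) with 31 positive, and in voom with quality weights it was -0.19 (all genes -0.05) with 29 negative. The estimate lay within 0.5 of 0 for 27 of 40 members, beside 14109 of 18005 tested genes. For 26 members the 95% interval (normal approximation) stayed inside a 2-fold change in both directions. Such intervals are narrower than the edgeR test: that of Chgb, 0.01 to 0.90, leaves out 0 at an unadjusted p of 0.07. In bulk RNA, fewer cells of a type and less RNA per cell cannot be told apart.

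**Figure D1:**
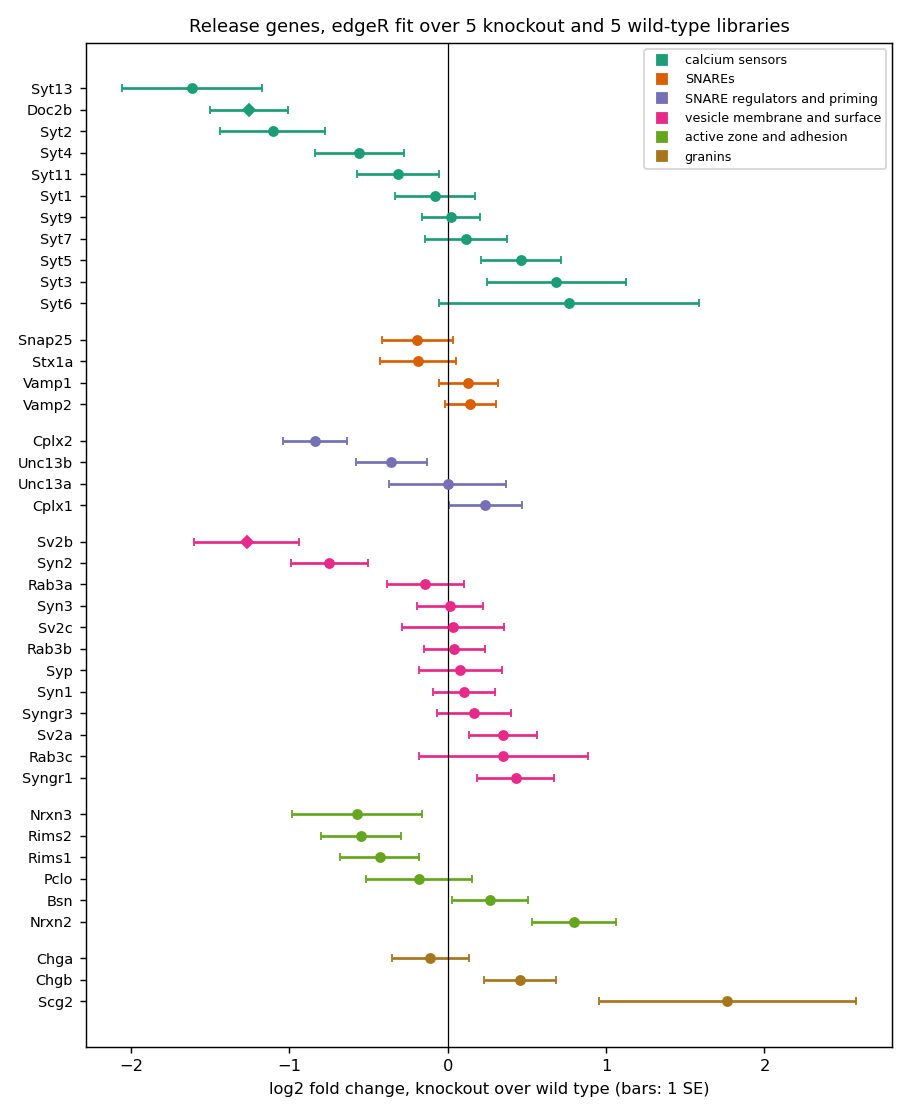
Log2 fold change of each release gene, knockout over wild type, on the horizontal axis, with bars of 1 SE from the edgeR fit, grouped by role and coloured by role. Diamonds mark Doc2b and Sv2b, whose libraries did not overlap between genotypes. Syt13 (-1.61) and Scg2 (1.76) lie farthest from 0, and all 4 SNAREs lie near it.

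Per kilobase of exon, Syt11 was the highest member at 80.8 CPM per kb in the knockout, against 100.5 CPM per kb in the wild type. Vamp2 (67.1 in the knockout, against 60.8 in the wild type), Rab3a (51.5 and 56.9) and Stx1a (46.3 and 52.7) came next in CPM per kb in the wild type. In the knockout Cplx1, at 47.3 CPM per kb, stood above Stx1a. Syt13 stood at 13.46 CPM per kb in the knockout and at 41.3 CPM per kb in the wild type, where it followed Stx1a. At the low end were Syt6 (1.33 in the knockout, 0.791 in the wild type), Syt3 (1.34 and 0.837), Syn3 (1.27 and 1.26), Doc2b (0.881 and 2.10) and Sv2b (0.889 and 2.19), in the same unit. Neighbours such as Vamp2 and Rab3a overlapped in their library values within each genotype, so their order is not fixed by these data.

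Within the calcium sensor group, the largest differences were in Syt13, Doc2b and Syt2. Syt13 encodes an atypical synaptotagmin that does not bind calcium. It had 46.9, 123, 18.6, 34.2 and 31.0 CPM in the knockout libraries, against 143, 170.3, 178, 193 and 91.2 CPM in the wild-type libraries. Of the knockouts, 4 lay below every wild type and knockout 29 lay among them, so the groups overlapped. The fit gave a log2 fold change at -1.61, with SE 0.44 and adjusted p = 0.161, and without knockout 29 it gave -2.22 (adjusted p = 0.0125), past the threshold. Without that library 0.478% of all genes were called lower and 0.125% higher, and without knockouts 29 and 49 Syt13 was still called, beside 0.251% of all genes lower and 0.032% higher.

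Syt2 encodes a fast calcium sensor closely related to the product of Syt1. Its levels were 30.1, 70.9, 21.8, 22.3 and 33.2 CPM in the knockout, against 60.2, 57.0, 99.1, 107 and 61.7 CPM in the wild type. Again 4 knockouts lay below all wild types and knockout 29 did not. The log2 fold change was -1.10 (SE 0.33, adjusted p = 0.203) over all libraries and -1.48 (adjusted p = 0.0324) without knockout 29, and it was -0.68 (adjusted p = 0.77) without wild-type 32 and 35. Knockout 29 also had the highest residual Prdm12 of the knockouts (42.7 CPM), the highest Scn10a (26.1 CPM) and the glial excess given above. The part of these in its Syt2 and Syt13 levels was not tested.

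Doc2b, whose product is a high-affinity calcium sensor for spontaneous release, was the member nearest to a call. Its levels were 5.66, 3.54, 3.17, 4.05 and 2.80 CPM in the knockout libraries, against 9.04, 11.1, 9.67, 9.66 and 6.37 CPM in the wild-type libraries, and the groups did not overlap. Non-overlap occurred in 2 of 40 members, Doc2b and Sv2b, and in 758 of 18005 genes (4.21%). The edgeR fit gave a log2 fold change at -1.25, with SE 0.25 and adjusted p = 0.0542, or a mean of 3.84 ± 1.12 CPM in the knockout, against 9.16 ± 1.72 CPM in the wild type (n = 5 each, SD). Its adjusted p was 0.000411 in DESeq2 and 0.04998 in limma voom, and 4 of 23 alternative settings called it.

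Syt1, the main sensor of fast release, had 173, 104, 126, 119 and 180.1 CPM in the knockout, against 96.0, 98.5, 207, 203 and 141 CPM in the wild type, with a 95% interval of -0.58 to 0.42 around -0.08 log2. Syt4, an atypical synaptotagmin of dense core vesicles, had 139, 57.5, 69.3, 78.2 and 94.5 CPM in the knockout, against 84.0, 92.2, 181, 176 and 114 CPM in the wild type. In the wild type both were highest in replicates 32 and 35, and Syt4 was highest among knockouts in replicate 16. Relative to Syt1, Syt4 was lower in every knockout: it supplied 44.5, 35.5, 35.4, 39.6 and 34.4% of the 2 genes' summed counts in the knockout, against 46.7, 48.4, 46.6, 46.4 and 44.9% in the wild type. The highest knockout share (44.5%) lay just under the lowest wild-type share (44.9%), and the mean log2 ratio differed by -0.52.

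The low-abundance sensors Syt3 and Syt6 followed 1 library. Syt6 had 27.4, 3.30, 0.782, 5.79 and 1.503 CPM in the knockout, against 2.60, 8.47, 3.95, 2.08 and 5.95 CPM in the wild type, and Syt3 had 9.25, 2.05, 2.99, 4.05 and 2.52 CPM in the knockout, against 1.87, 3.55, 1.91, 1.74 and 3.98 CPM in the wild type. In both, knockout 16 was the highest library, and without it the groups overlapped through most of their range. Syt7, a slow sensor linked to asynchronous release, Syt9, another fast sensor, Syt5 and Syt11 had log2 fold changes of 0.12, 0.02, 0.46 and -0.31, none past the test. Their 95% intervals (normal approximation) were -0.39 to 0.62, -0.34 to 0.38, -0.04 to 0.96 and -0.82 to 0.19. A 2-fold change lay outside those of Syt7, Syt9 and Syt11 in this fit. The approximation is narrower than the test, so with a limit at 0.96 a 2-fold change in Syt5 is not excluded. Syt5 stood at 0.90 log2 without wild-type 32 and 35 and at 0.88 with pan-neuronal scaling, nearer to a 2-fold change, and neither was past the test.

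**Figure D2:**
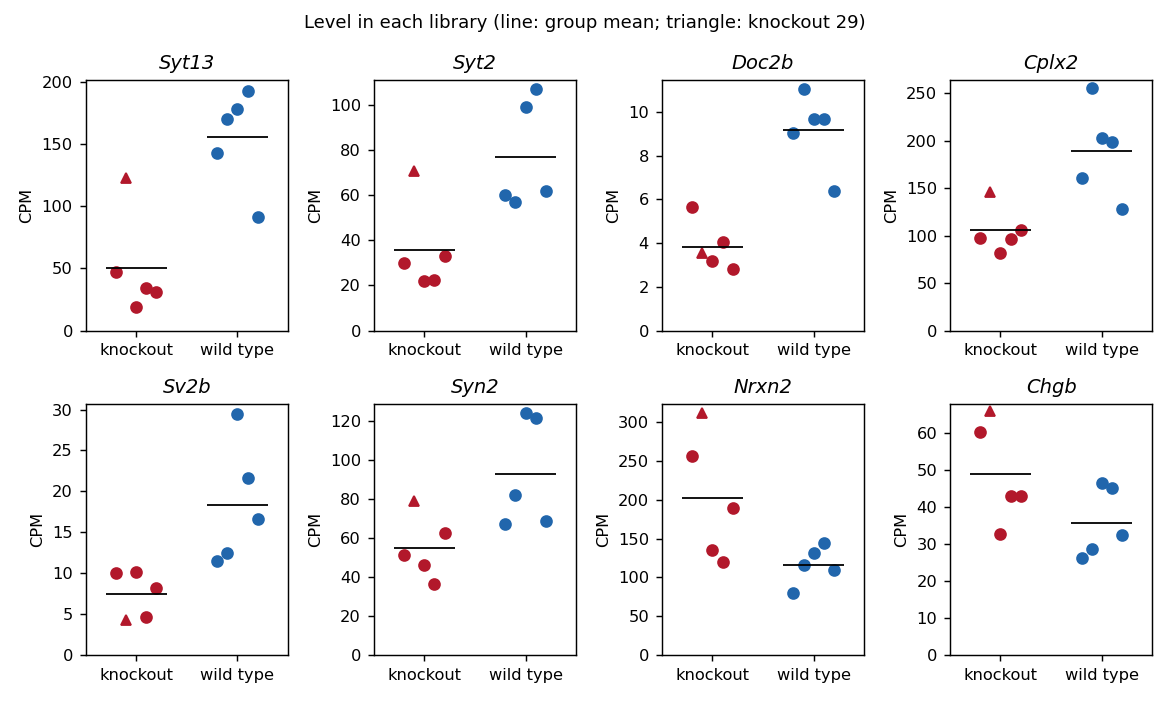
Level in CPM (vertical axis, linear) of 8 release genes in each library, knockout left and wild type right, with the group mean as a line and knockout 29 as a triangle. Knockout 29 sits among the wild types in Syt13 and Syt2, the genotypes do not overlap in Doc2b and Sv2b, and Nrxn2 and Chgb have higher means in the knockout.

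The SNAREs, which drive fusion itself, differed little between genotypes. Snap25, a SNARE of the plasma membrane, averaged 192 ± 38.9 CPM in the knockout, against 219 ± 67.5 CPM in the wild type (n = 5 each, SD). Its partner Stx1a averaged 123 ± 33.7 CPM in the knockout, against 141 ± 44.8 CPM in the wild type. The vesicle SNARE Vamp2 had 249.8, 347, 224, 219 and 239 CPM in the knockout, against 184, 234, 247, 275 and 218 CPM in the wild type, with knockout 29 above all other libraries. The 4 log2 fold changes were -0.19 for Snap25, -0.19 for Stx1a, 0.13 for Vamp1 and 0.14 for Vamp2. All 4 had 95% intervals inside a 2-fold change, the widest being -0.66 to 0.29 for Stx1a. Vamp1 supplied 9.90% to 14.03% of Vamp1 plus Vamp2 counts in the knockout, against 8.08% to 13.2% in the wild type.

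Complexins bind the assembled SNARE complex, and the 2 members gave different values. Cplx2 had 97.7, 147, 82.3, 96.7 and 106 CPM in the knockout libraries, against 161, 256, 203, 199 and 128 CPM in the wild-type libraries. Knockout 29 alone exceeded the lowest wild type. The fit gave a log2 fold change at -0.84, with SE 0.20 and adjusted p = 0.11, and DESeq2 gave an adjusted p of 0.0287. Cplx1 had 94.6, 145, 95.5, 74.1 and 108 CPM in the knockout, against 50.7, 105, 103, 107 and 73.1 CPM in the wild type, a log2 fold change at 0.24, with SE 0.23 and adjusted p = 0.666.

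The 2 complexin genes were also set against each other within each library, as shares of counts that are not corrected for gene length. Cplx2 supplied 50.8, 50.2, 46.3, 56.6 and 49.5% of the Cplx1 plus Cplx2 counts in the knockout libraries, against 76.0, 70.8, 66.2, 65.1 and 63.7% in the wild-type libraries. Every knockout share of Cplx2 lay below every wild-type share. The mean log2 ratio of Cplx2 to Cplx1 differed by -1.08, 0.04 ± 0.22 in the knockout, against 1.12 ± 0.35 in the wild type (n = 5 each, SD, exact two-sided permutation test, p = 0.00794, adjusted over 28 pairs 0.037).

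The sequences before the 2 complexin genes are shown because these paralogues parted in the data. They are the 250 bases upstream of the RefSeq start (GRCm38.p6), 5′ to 3′ on the gene's strand, at chr13:54302306-54302555, plus strand for Cplx2 and at chr5:108550028-108550277, minus strand for Cplx1. Capitals mark matches on either strand to GGGCGG (the GC box), TGACGT (the core of the cAMP response element), TATAAA, TTCAGCACC (the left part of the element RE1) or TGTGGT (the Runx core).
Cplx2: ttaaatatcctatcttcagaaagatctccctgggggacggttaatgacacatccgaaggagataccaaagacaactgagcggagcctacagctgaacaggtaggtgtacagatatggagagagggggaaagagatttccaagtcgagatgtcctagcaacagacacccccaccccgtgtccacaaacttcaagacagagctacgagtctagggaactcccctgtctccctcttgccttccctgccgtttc
Cplx1: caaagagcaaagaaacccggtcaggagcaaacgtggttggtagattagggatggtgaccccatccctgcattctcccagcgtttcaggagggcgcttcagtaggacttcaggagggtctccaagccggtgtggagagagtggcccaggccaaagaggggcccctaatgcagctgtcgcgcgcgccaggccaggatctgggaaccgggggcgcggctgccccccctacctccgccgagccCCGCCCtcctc
The Cplx2 stretch held none of these letters, a GC content of 50.8% and 7 CpG. The Cplx1 stretch held 1 GC box beginning 11 bases before the start, as CCGCCC, with a GC content of 64.8% and 15 CpG. Of all 32851 stretches of this length in the table, 32.7% held GGGCGG, 6.47% TGACGT, 12.4% TATAAA, 0.301% TTCAGCACC and 14% TGTGGT. The table had 40 starts for 29 of the 40 release genes, and 62.5%, 12.5%, 7.5%, 2.5% and 2.5% of those 40 held the same 5 strings. A match is a string of letters and not a shown binding site.

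Unc13a and Unc13b encode Munc13 proteins, which prime docked vesicles. Unc13a averaged 199.99 ± 82.8 CPM in the knockout, against 200.1 ± 96.5 CPM in the wild type, a log2 fold change of 0.00 with a 95% interval of -0.72 to 0.72. Unc13b averaged 141 ± 23.4 CPM in the knockout, against 180.0 ± 60.5 CPM in the wild type (-0.36, SE 0.23, adjusted p = 0.505). Their ratio overlapped between genotypes.

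Of the 12 vesicle membrane and surface genes, 10 had estimates within 0.5 of 0, and the exceptions were Sv2b and Syn2. Sv2b belongs to the SV2 glycoproteins, transporter-like proteins that synaptic vesicles carry in several copies and that botulinum toxins use as receptors. It had 9.99, 4.25, 10.2, 4.63 and 8.21 CPM in the knockout, against 11.5, 12.5, 29.4, 21.6 and 16.7 CPM in the wild type, without overlap. The log2 fold change was -1.27 (SE 0.33, adjusted p = 0.137), and DESeq2 gave an adjusted p of 0.0176.

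The 2 paralogues gave other values. Sv2a, the broadly expressed member and the binding site of the drug levetiracetam, had 191, 137, 112, 112 and 153 CPM in the knockout, against 78.7, 81.5, 138, 145 and 112 CPM in the wild type. Sv2c had 102, 70.5, 86.7, 72.1 and 125 CPM in the knockout, against 42.7, 47.4, 136, 126 and 93.8 CPM in the wild type. Both overlapped between genotypes, with log2 fold changes of 0.35 (SE 0.21) and 0.03 (SE 0.32).

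Within the SV2 family, Sv2b supplied 4.98, 2.998, 8.32, 3.97 and 5.09% of Sv2a plus Sv2b counts in the knockout libraries, against 12.8, 13.3, 17.6, 12.9 and 13.0% in the wild-type libraries. Every knockout share lay below every wild-type share. The log2 ratio of Sv2b to Sv2a differed by -1.63 and that of Sv2c to Sv2b by 1.42, each at the smallest p the exact permutation test allows (0.00794, adjusted 0.037). These 2 pairs share Sv2b and are not separate observations. Sv2c to Sv2a differed by -0.20 and overlapped (exact permutation p = 0.341).

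The 250 bases before Sv2b (the first of 4 RefSeq starts, chr7:75309263-75309512, minus strand) and before Sv2a (chr3:96180977-96181226, plus strand) are shown for the same reason, with capitals as above.
Sv2b: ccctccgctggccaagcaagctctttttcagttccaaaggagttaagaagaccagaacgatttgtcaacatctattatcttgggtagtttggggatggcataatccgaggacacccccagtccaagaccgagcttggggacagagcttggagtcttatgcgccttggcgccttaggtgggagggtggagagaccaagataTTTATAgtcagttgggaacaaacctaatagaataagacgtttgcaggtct
Sv2a: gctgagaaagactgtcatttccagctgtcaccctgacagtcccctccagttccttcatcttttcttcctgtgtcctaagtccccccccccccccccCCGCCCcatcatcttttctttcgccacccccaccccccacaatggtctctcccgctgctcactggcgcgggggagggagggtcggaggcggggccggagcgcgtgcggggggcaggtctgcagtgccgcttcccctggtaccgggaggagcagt
The Sv2b stretch held TATAAA, as TTTATA, beginning 50 bases before the start, with a GC content of 48.8%. The Sv2a stretch held a GC box beginning 154 bases before the start, with a GC content of 66%. The median GC content was 60.6% over the 40 starts of release genes and 52.4% over all starts.

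Synapsins tether vesicles in the reserve pool. Syn2 had 51.0, 78.8, 46.0, 36.5 and 62.3 CPM in the knockout, against 67.0, 82.1, 124, 121 and 68.6 CPM in the wild type. Of the knockouts, 4 lay below all wild types and knockout 29 lay among them. The fit gave a log2 fold change at -0.75, with SE 0.24 and adjusted p = 0.235. Syn1 had 80.6, 85.9, 62.3, 54.7 and 79.8 CPM in the knockout, against 42.6, 71.9, 72.1, 89.8 and 62.2 CPM in the wild type, with values that covered the same range, and Syn3 averaged 15.5 ± 3.64 CPM in the knockout, against 15.4 ± 3.31 CPM in the wild type.

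Syn2 supplied 38.7, 47.8, 42.5, 40 and 43.8% of Syn1 plus Syn2 counts in the knockout libraries, against 61.1, 53.3, 63.2, 57.4 and 52.4% in the wild-type libraries. These shares too were below all wild-type shares in each of the 5 knockouts, and do not compare the 2 genes' levels per length. The log2 ratio differed by -0.87 (exact permutation p = 0.00794, adjusted 0.037). Syn3 to Syn2 differed by 0.77 and overlapped, with an adjusted p of 0.0556. A 60-base stretch before Syn1 (chrX:20921109-20921168, minus strand) is shown because it was the 1 stretch among the release genes with TTCAGCACC, here in capitals and beginning 232 bases before the start.
Syn1: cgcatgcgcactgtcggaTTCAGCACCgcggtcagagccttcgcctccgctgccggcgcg

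The other vesicle genes did not pass the test. Syp, an abundant vesicle protein, had a log2 fold change of 0.08 (95% interval -0.44 to 0.59). Rab3a, the main Rab3 GTPase of synaptic vesicles, gave -0.14 (-0.61 to 0.33), and Rab3b gave 0.04 (-0.34 to 0.42). The synaptogyrins Syngr1 and Syngr3 gave 0.43 and 0.17, neither past the test. Rab3c had 262, 37.1, 34.2, 61.4 and 70.0 CPM in the knockout, against 34.2, 111, 75.5, 65.96 and 79.7 CPM in the wild type, a log2 fold change of 0.35 with a wide 95% interval of -0.69 to 1.39, and knockout 16 was far above the rest.

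**Figure D3:**
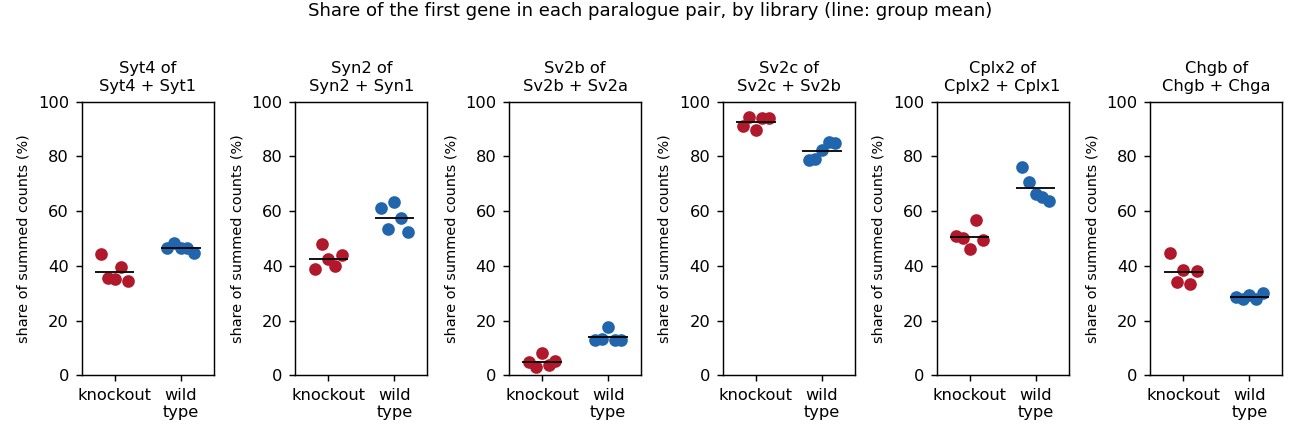
Share of the first gene in the summed counts of 6 paralogue pairs, in percent from 0 to 100 (vertical axis), for each library, knockout left and wild type right, with group means as lines. In all 6 the genotypes do not overlap. Cplx2 supplies 46.3% to 56.6% in the knockout, against 63.7% to 76.0% in the wild type.

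Active zone and adhesion genes gave estimates of both signs. Nrxn2, which encodes a neurexin, a presynaptic adhesion protein that organises release sites, had 256, 312, 135, 119.9 and 189 CPM in the knockout, against 79.4, 116, 132, 145 and 110.1 CPM in the wild type. Knockouts 16, 29 and 50 lay above all wild types and the other 2 lay among them. The fit gave a log2 fold change at 0.80, with SE 0.27 and adjusted p = 0.247, the 1 member with a higher level at an unadjusted p under 0.05. When libraries were scaled to pan-neuronal genes the value was 1.13 (adjusted p = 0.0215), past the threshold. That scaling called 0.244% of all genes lower and 0.261% higher (0.288% and 0.38% without knockout 29) and moved the median of all genes to 0.34.

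Nrxn3 had 56.8, 21.7, 9.71, 20.3 and 20.6 CPM in the knockout, against 30.7, 21.4, 52.0, 50.7 and 38.2 CPM in the wild type. Knockout 16 was the highest library, and the other 4 knockouts lay below all wild types but wild-type 24. Nrxn3 supplied 18.1, 6.51, 6.71, 14.5 and 9.83% of Nrxn2 plus Nrxn3 counts in the knockout, against 27.8, 15.6, 28.2, 25.9 and 25.8% in the wild type. The log2 ratio differed by -1.47 with an adjusted p of 0.0556, and the groups overlapped through knockout 16 and wild-type 24.

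The scaffolds were less spread. Rims1 and Rims2, which tether vesicles to calcium channels, gave -0.43 (SE 0.25) and -0.55 (SE 0.25) log2, and their ratio to each other differed by -0.10. Bsn and Pclo, which encode the giant scaffolds Bassoon and Piccolo, gave 0.26 (SE 0.24) and -0.18 (SE 0.33). Adjusted p-values of the 4 lay between 0.38 and 0.839 in edgeR.

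Among the granins, Chgb had 60.4, 65.9, 32.8, 43.1 and 43.1 CPM in the knockout, against 26.1, 28.6, 46.6, 45.3 and 32.4 CPM in the wild type, and Chga had 74.4, 128, 52.4, 86.3 and 69.5 CPM in the knockout, against 64.6, 74.3, 112, 117 and 75.2 CPM in the wild type. Both overlapped between genotypes, with log2 fold changes of 0.46 (SE 0.23) and -0.11 (SE 0.25). Chgb nevertheless supplied more of the pair in each knockout, with 44.8, 34.0, 38.5, 33.3 and 38.2% of Chga plus Chgb counts in the knockout, against 28.8, 27.8, 29.4, 27.9 and 30.1% in the wild type. The wild-type shares lay within 27.8% to 30.1%, below the lowest knockout. The log2 ratio differed by 0.58 (exact permutation p = 0.00794, adjusted 0.037).

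Chgb and Chga both carry the core of the cAMP response element close to the start. Scg2, the other granin gene, was not looked at singly. The core is not particular to granin genes: Syn1 holds it too, beginning 159 bases before its start. It occurred in 12.5% of the 40 starts of release genes and in 6.47% of all starts. The 60-base stretches at chr2:132781543-132781602, plus strand for Chgb and at chr12:102554870-102554929, plus strand for Chga show it in capitals.
Chgb: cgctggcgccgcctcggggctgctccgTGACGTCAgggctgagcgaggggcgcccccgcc
Chga: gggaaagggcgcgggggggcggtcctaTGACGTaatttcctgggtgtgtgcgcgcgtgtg
In Chgb the letters form the palindrome TGACGTCA, which matches on both strands and begins 72 bases before the start. In Chga the match begins 44 bases before the start.

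Scg2, the precursor of secretoneurin, had 23.1, 6.53, 6.62, 130.01 and 10.4 CPM in the knockout, against 6.41, 8.66, 7.41, 7.27 and 20.5 CPM in the wild type. Knockout 49 was far above all other libraries, and wild-type 45 was the highest wild type. The log2 fold change was 1.76 (SE 0.81, adjusted p = 0.383) over all libraries and 0.22 (adjusted p = 0.863) without knockout 49. The same 2 libraries held the pituitary markers: Pitx1 stood at 116 CPM in knockout 49 and 8.98 CPM in wild-type 45, and at most 0.865 CPM elsewhere. The list of 10 such markers summed to 376 CPM in knockout 49, 2.38 to 5.60 CPM in the other knockouts, 41.8 CPM in wild-type 45 and 4.09 to 5.05 CPM in the other wild types. Its part in the Scg2 levels was not tested.

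Knockout 16, the highest library in Rab3c, Syt6, Syt3 and Nrxn3, was also the highest in central nervous system markers. The list of 15 summed to 300.2 CPM there, to 16.2 to 72.9 CPM in the other knockouts and to 11.9 to 80.2 CPM in the wild types. Gad1, which marks GABA neurons, stood at 38.9 CPM in knockout 16, at most 5.66 CPM in the other knockouts and at most 5.67 CPM in the wild types. Within the wild types the sum was highest in replicate 24, which was the highest of them in Rab3c and Syt6 and the lowest in Nrxn3 (21.4 CPM). Knockout 50, second among knockouts in the sum (72.9 CPM), had Syt6 at 1.503 CPM. The part of these markers in the 4 genes was not tested. Without knockout 16 alone, Rab3c stood at -0.53, Syt6 at -0.83, Syt3 at 0.12 and Nrxn3 at -1.10 log2, and none of the 4 was past the test. Without knockouts 16, 29 and 49 together, a setting chosen after seeing the data, Rab3c stood at -0.49, Syt6 at -2.01, Syt3 at 0.08 and Nrxn3 at -1.34 log2, and no member was called (all genes 0.0154% lower and 0.00513% higher).

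**Figure D4:**
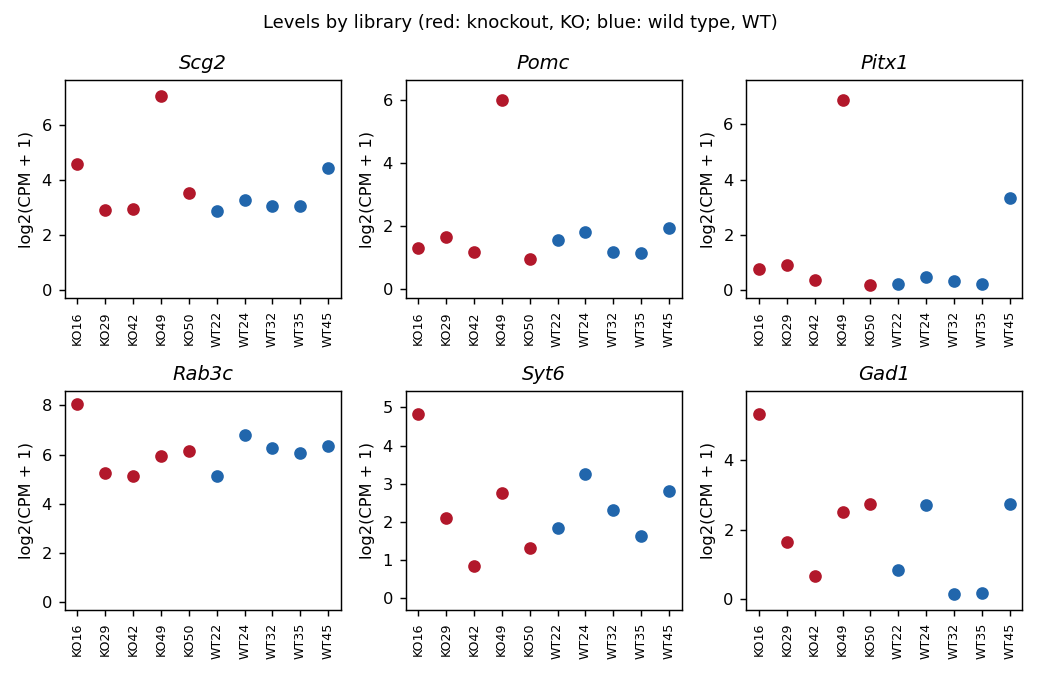
Level as log2(CPM + 1) (vertical axis) in each library, knockouts (KO, red) left of wild types (WT, blue), for Scg2, Rab3c and Syt6 beside marker genes of the pituitary (Pomc, Pitx1) and of GABA neurons (Gad1). Scg2 peaks in knockout 49 with Pomc and Pitx1, and Rab3c and Syt6 peak in knockout 16 with Gad1.

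Across families, 28 pairs of paralogues were compared by their count ratio within a library, which no library scaling affects. In 6 of the 28 (21.4%) the genotypes did not overlap, against 3.95% of all 162081010 pairs of tested genes. These were Syt4 to Syt1, Syn2 to Syn1, Sv2b to Sv2a, Sv2c to Sv2b, Cplx2 to Cplx1 and Chgb to Chga. They were also the 6 past an adjusted p of 0.05. A pair without overlap takes the smallest p of the exact permutation test whatever the size of its difference. Passing the test therefore repeats the non-overlap and is no separate result. Pairs of 1 family share genes, and the release genes were chosen with earlier results known, so the 2 percentages are set side by side as a description. Over the 15 alternatives the differences ranged from -0.70 to -0.46 for Syt4 to Syt1, -0.95 to -0.76 for Syn2 to Syn1, -1.83 to -1.20 for Sv2b to Sv2a, 1.29 to 1.59 for Sv2c to Sv2b, -1.24 to -0.95 for Cplx2 to Cplx1 and 0.47 to 0.65 for Chgb to Chga. Where genotypes do not overlap, leaving out libraries or taking medians cannot change a sign, so the constant signs are no separate result. Leaving out wild-type 22, 24, 32 or 35 left 0 of 28 pairs past the threshold, with adjusted p-values of the 6 at 0.0741, 0.0635, 0.0741 and 0.0741. The count was also 0 without knockouts 16, 29 and 49 (0.111). That setting leaves too few assignments for a pair to pass after adjustment unless nearly all pairs do, so its 0 says nothing about the differences.

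Ratios to Syt1 moved in both directions without knockout 29. Syt13 to Syt1 differed by -1.84 over all libraries (adjusted p = 0.0889) and by -2.33 without knockout 29 (adjusted p = 0.0247, exact permutation test). Syt2 to Syt1 differed by -1.16 over all libraries (adjusted p = 0.111) and by -1.54 without it (adjusted p = 0.0247). Syt2 supplied 14.8, 40.4, 14.7, 15.8 and 15.6% of Syt1 plus Syt2 counts in the knockout, against 38.5, 36.7, 32.4, 34.5 and 30.5% in the wild type, so that knockout 29 lay above every wild type in this share and the other 4 knockouts below. Syt5 to Syt1 differed by 0.54 over all libraries and by 0.32 without knockout 29 (adjusted p = 0.0741, exact permutation test). Without knockout 29, 10 pairs passed, the added ones being Syt2, Syt11 and Syt13 to Syt1 and Syn3 to Syn2. The share among all pairs of tested genes was not computed for that setting, so the rise is not a result about release genes. Pairs with little difference included Vamp1 to Vamp2 (0.03), Syt9 to Syt1 (0.06), Rab3c to Rab3b (-0.05) and Rims2 to Rims1 (-0.10).

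**Figure D5:**
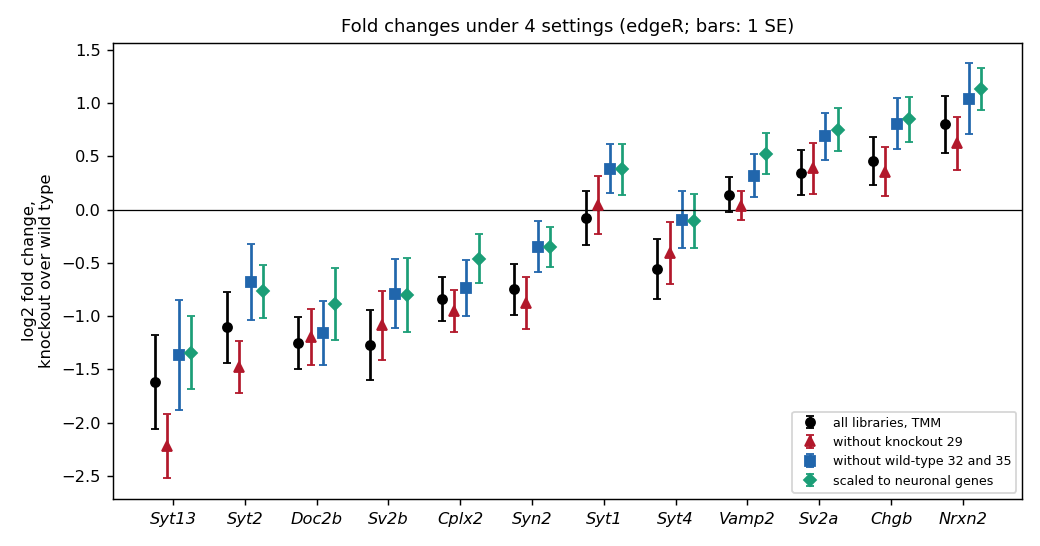
Log2 fold change, knockout over wild type (vertical axis, bars of 1 SE), of 12 release genes in 4 edgeR fits: all libraries with TMM factors, without knockout 29, without wild-type 32 and 35, and scaled to pan-neuronal genes. Syt13 stands at -2.22 without knockout 29 and at -1.61 with it, and Syt1 and Syt4 move up without wild-type 32 and 35.

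Other genes of the release pathway were read off the same fit. Of 95 listed companion genes 94 were matched and 89 tested, and edgeR called 0 of them (0.467% of all genes), with 21 at an unadjusted p under 0.05 (all genes 13.1%), 12 lower (all genes 6.73%) and 9 higher (all genes 6.4%). DESeq2 called 2 lower and 4 higher (all genes 1.19% and 1.7%), and limma voom called 0 (all genes 0.411% lower and 0.128% higher). Their median log2 fold change was -0.01. All 10 companion SNAREs and all 12 vesicle recycling genes had estimates within 0.5 of 0.

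The largest companion differences were in 5 genes. Syt12, an atypical synaptotagmin, had 3.02, 4.41, 4.98, 4.92 and 6.78 CPM in the knockout, against 1.73, 2.40, 0.658, 0.922 and 2.11 CPM in the wild type, without overlap (1.62, SE 0.38, adjusted p = 0.0988). Rab27b, a GTPase of dense core vesicle transport, had 5.07, 2.68, 6.33, 6.37 and 6.60 CPM in the knockout, against 7.07, 11.7, 19.2, 15.8 and 12.8 CPM in the wild type, also without overlap (-1.30, SE 0.31, adjusted p = 0.103). Among companions, 2 genes lay without overlap higher in the knockout and 3 lower, where 1.29% and 2.92% of all genes did. Named after their values were seen, these were Syt12 and Itsn1 on the higher side and Vamp4, Rab27b and Picalm on the lower side. Syt15 (1.79, adjusted p = 0.22), the granule peptide precursor Vgf (1.43, adjusted p = 0.212) and the Rab effector Rph3al (1.55, adjusted p = 0.44) overlapped. Vgf was highest in knockout 29 at 248 CPM, and Rph3al in knockout 49 at 25.2 CPM.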

How the data were processed

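Total RNA of 10 trigeminal ganglion libraries was sequenced, and each library came as 1 deposited table of whole-number counts, unnormalised, by gene. Tools named per the submitters' processing notes are featureCounts 1.5.0-p1, STAR 2.7.10a and bcl2fastq 2.20.0.422, and the builds GRCm39 and mm10 are named without a role. The sources used here give no strand setting, annotation release or treatment of reads shared by paralogues or overlapping genes, so such reads may be assigned to either gene.

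Groups follow the genotype label. The release genes, companion lists and pairs were chosen with earlier results of these data known. Genes were kept with filterByExpr (minimum count 10, 18005 genes) and compared with edgeR 4.0.16 (TMM factors, quasi-likelihood test, Benjamini-Hochberg over all genes kept, threshold 0.05) in R 4.3.3. Unless another tool is named, adjusted p-values of genes come from edgeR. Gene symbols matched 52081 of 55414 IDs. Exon lengths for levels per kb came from GENCODE M21 gene models. Promoter stretches came from a RefSeq table (GRCm38.p6), which may not be the build the authors used. Paralogue ratios were log2 of counts plus 2, with exact two-sided permutation tests over 252 assignments (smallest p 0.00794) and Benjamini-Hochberg over 28 pairs. The 12 members with the largest fold change and the genes of pairs past the threshold were given by library, and companions when called or among the 5 largest changes at a mean of at least 1 CPM. Alternatives were other scalings, filters, left-out libraries, DESeq2 1.42.0 and limma 3.58.1. The fits were tested on simulated counts. The pass condition covered only changes larger than that of any release gene, so it does not bear on the recovery of smaller ones. Within groups, the lowest chi-square per gene between libraries was 9.88 (wild-type 32 and 35), so none repeated another. Depth per library is given with the results, and floors cover counting error only.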

Additional observations from a re-analysis of the deposited data

Results flagged for a closer look

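In 23 of 146 groups of 5 libraries, 1 library stood apart from the rest of its group by a gap of more than 0.71 of the group's range. For independent normal values about 1 in 20 would do so, or 7.3. Levels in CPM need not be normal and pairs share genes, so 7.3 is not a rate for these data. Of these, 9 were among the 80 groups of release gene levels.

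Knockout 29 stood apart in Syt2 (70.9 CPM, against 21.8 to 33.2 CPM in the other knockouts), Syt13 (123 CPM, against 18.6 to 46.9 CPM) and Vamp2 (347 CPM, against 219 to 249.8 CPM). It also stood apart in the companion Vgf (248 CPM, against 51.3 to 75.6 CPM) and in the log2 ratios of Syt2 to Syt1 (-0.56), Syt5 to Syt1 (-0.83), Syt11 to Syt1 (2.47) and Syngr3 to Syngr1 (-0.38).

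Knockout 16 stood apart in Rab3c (262 CPM, against 34.2 to 69.995 CPM in the other knockouts), Syt6 (27.4 CPM, against 0.782 to 5.79 CPM), Syt3 (9.25 CPM, against 2.05 to 4.05 CPM) and Nrxn3 (56.8 CPM, against 9.71 to 21.7 CPM). Knockout 49 stood apart in Scg2 (130.01 CPM, against 6.53 to 23.1 CPM), Rph3al (25.2 CPM, against 1.43 to 3.23 CPM) and the log2 ratio of Rab3b to Rab3a (-0.89).

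Wild-type 45 stood apart in Scg2 (20.5 CPM, against 6.41 to 8.66 CPM in the other wild types), Syt15 (1.83 CPM), Rph3al (4.08 CPM) and the log2 ratios of Syt7 to Syt1 (-0.98) and Syn3 to Syn2 (-2.02). Wild-type 24 stood apart in the log2 ratios of Vamp1 to Vamp2 (-3.50) and Nrxn3 to Nrxn2 (-2.43), and wild-type 32 in that of Sv2b to Sv2a (-2.23).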

How the results depend on the processing

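The 40 log2 fold changes were recomputed in 23 alternatives. Their sign changed in 90 of 920 values, across 23 members, and 19 values were past the threshold. DESeq2 called 4 members lower, limma voom 1 and voom with sample quality weights 6. Leaving out 1 library gave 0 to 2 (1 without knockout 16, 2 without knockout 29). Without knockouts 29 and 49 there was 1. Scaling to pan-neuronal genes gave 1 higher, and the same without knockout 29 gave 2 lower and 1 higher, a setting chosen after seeing the data. Scg2, the member farthest from 0, ranged from -0.23 to 2.68 and changed sign in 1 alternative (without knockouts 16, 29 and 49), and Syt6 ranged from -2.01 to 1.19 and changed sign in 4 (both voom fits, without knockout 16 and without knockouts 16, 29 and 49). The 6 members lower at an unadjusted p under 0.05 kept their sign throughout, Syt13 at -2.65 to -1.34, Doc2b at -1.62 to -0.78, Sv2b at -1.40 to -0.60, Syt2 at -1.55 to -0.68, Cplx2 at -1.01 to -0.46 and Syn2 at -0.88 to -0.35, and their adjusted p-values reached 0.669, 0.368, 0.71, 0.77, 0.608 and 0.82. The cause of these moves was not tested.

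Of all genes, DESeq2 called 245 lower and 350 higher, voom with quality weights 1080 lower and 1264 higher, no low-count filter 102 lower and 55 higher, and pan-neuronal scaling 44 lower and 47 higher (70 higher without knockout 29). Leaving out 1 library gave 27 to 88 lower and 2 to 35 higher. Without wild-type 32 and 35 there were 19 lower and 0 higher, without knockouts 29 and 49 there were 6 higher, and without knockouts 16, 29 and 49, chosen after seeing the data, 3 lower and 1 higher. Among companions, DESeq2 called 2 lower and 4 higher (all genes 1.19% and 1.7%). Voom with quality weights called 11 lower and 3 higher (all genes 6% and 7.02%). Pan-neuronal scaling called 1 higher (all genes 0.261%), and 2 without knockout 29 (all genes 0.38%).

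Of the 28 pairs, the number past the threshold was 0 with medians, 0 to 10 with 1 library left out, 0 without wild-type 32 and 35 and 0 without knockouts 16, 29 and 49. No paired analysis was made because the labels name no batch, litter or pairing.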
